A study of Mus musculus with 6 samples.

Results

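The extracellular signal-regulated kinase (ERK) cascade carries signals from growth factor receptors and integrins through Ras, Raf and MEK to the nucleus, where it switches on genes that restrain the same cascade. These feedback genes encode dual-specificity phosphatases (DUSPs), which remove the activating phosphates from ERK and related kinases, and the membrane-associated Sprouty and Spred proteins, which act on the pathway upstream of ERK. The ETS transcription factors of the PEA3 group and Phlda1 are commonly read as transcriptional outputs of the pathway. In squamous epithelium the pathway can be driven by receptors such as the EGF receptor. Focal adhesion kinase (FAK), the kinase that the study removed and restored, is known to pass integrin and growth factor signals to Ras and ERK.

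Transcripts of 10 such genes were chosen by name and Ensembl identifier, and 9 of the 10 were among the 17204 genes in the array data: Dusp5 (ENSMUSG00000034765), Dusp6 (ENSMUSG00000019960), Spry1 (ENSMUSG00000037211), Spry2 (ENSMUSG00000022114), Spry4 (ENSMUSG00000024427), Spred1 (ENSMUSG00000027351), Etv4 (ENSMUSG00000017724), Etv5 (ENSMUSG00000013089) and Phlda1 (ENSMUSG00000020205). Dusp4 (ENSMUSG00000031530) was not analysed here. RNA came from 2 mouse squamous cell carcinoma (SCC) cell lines of FVB background and K14CreER FAKflox/flox genotype, in which a tamoxifen-activated Cre under the keratin 14 promoter removes the floxed fak gene. The carcinomas had been induced in skin with the chemicals DMBA and TPA, and the activity of Ras and ERK in the cells was not measured here. SCC FAK-/- is a single FAK-null clone, and SCC FAK-wt is the same clone after retroviral transduction to re-express wild-type FAK, so that both lines lack the endogenous gene. Cells that re-expressed FAK were kept under hygromycin, and transduction, selection and FAK cannot be told apart between the lines. Each line was measured on 3 arrays, 1 per labelled replicate, and whether the replicates were separate cultures is not given in the sources used here. The p-values therefore measure the spread between these samples, which may be technical. The identifiers of the fak gene and of squamous, fibroblast, immune and endothelial markers were not paired with symbols here, so neither FAK nor the labelled cell type was checked.

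Expression values are on the log2 scale after Robust Multi-array Average (RMA) normalization, on which a difference of 1 is a 2-fold change. They rank arrays for 1 gene and, apart from a filter on dim genes described below, were not used to rank genes against each other. Differences are SCC FAK-wt minus SCC FAK-/- and were tested with limma over all 17204 genes. The thresholds were an unadjusted p under 0.01 and a Benjamini-Hochberg adjusted p under 0.05. The study also used a p under 0.01, and the sources used here do not say whether it was adjusted. In RNA from whole cultures, fewer cells that express a gene and less RNA per cell cannot be told apart.

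The comparison asks which transcripts differ between the 2 lines. The Sprouty genes, Spred1 and Etv5 had lower values on every array of the line that re-expressed FAK, with differences below 2-fold, and the 2 lines overlapped in the DUSPs, Etv4 and Phlda1. At an unadjusted p under 0.01, Etv5 was the 1 gene of the 9 that was lower in SCC FAK-wt, where 3.66% of all genes tested were lower. None (0 of 9) was higher at that threshold, where 3.19% of all genes were. At an adjusted p under 0.05, 0 of the 9 were called by limma, against 1.92% of all genes, and the lowest adjusted p was 0.0799, for Etv5. At an unadjusted p under 0.05, 4 of the 9 were lower, namely Etv5 and the 3 Sprouty genes, against 7.74% of all genes. In 5 of the 9 genes (Spry1, Spry2, Spry4, Spred1 and Etv5) every SCC FAK-wt array lay below every SCC FAK-/- array, a separation that 10.0% of all genes showed. The reverse separation was found in 0 of the 9 and in 11.5% of all genes. The 9 genes were chosen with earlier results of these data known, and genes of a shared pathway on the same arrays are not independent. The counts here and below are therefore set beside the shares of all genes as description and were not tested against them.

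All 9 means were lower in SCC FAK-wt cells on the deposited scale, and 8 of the 9 once the median of every array was set to 0, where the Dusp5 difference turned to 0.03. Over all genes, 46.7% had the lower mean in SCC FAK-wt. The median difference over the 9 genes was -0.25, and that over all genes was 0.016. Without regard to sign, the median difference was 0.25 for the 9 genes and 0.14 for all genes.

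**Figure D1:**
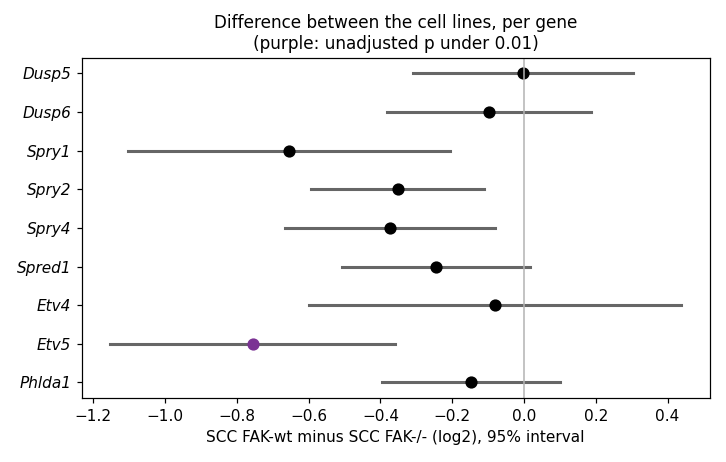
Differences between the cell lines for the 9 genes, as SCC FAK-wt minus SCC FAK-/- on the log2 scale, with points for the limma estimates from 3 arrays per line and bars for their 95% intervals. Etv5, in purple, is the gene with an unadjusted p under 0.01, and the intervals of Etv5, Spry1, Spry2 and Spry4 lie wholly below 0.

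Among the negative-feedback genes, the phosphatases were examined first because they act on ERK itself. Neither Dusp5 nor Dusp6 differed between the lines by more than the spread between arrays. Dusp5 encodes a nuclear phosphatase that dephosphorylates and anchors ERK. Its values were 8.33, 8.62 and 8.46 in SCC FAK-wt and 8.43, 8.34 and 8.66 in SCC FAK-/- cells. The groups overlapped over nearly their whole range. The Dusp5 difference was -0.0028 (standard error 0.13, 95% interval -0.31 to 0.30, adjusted p = 0.994), and its sign turned with each array centered on its median (0.030) or with array weights (0.0027), but not with quantile normalization (-0.026) or cyclic loess (-0.025). It also turned without SCC FAK-wt replicate 1 (0.070), SCC FAK-wt replicate 3 (0.0013) or SCC FAK-/- replicate 3 (0.091). As a ratio, the interval runs from 0.81-fold to 1.24-fold for SCC FAK-/- over SCC FAK-wt.

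Dusp6 encodes the cytoplasmic phosphatase that is selective for ERK, and its mRNA is widely used as a readout of ERK activity. It was measured at 10.10, 10.01 and 10.21 in SCC FAK-wt and at 10.27, 10.33 and 10.02 in SCC FAK-/- cells. One SCC FAK-/- array, replicate 3, lay beside the lowest SCC FAK-wt array, and the groups overlapped. The Dusp6 difference was -0.098 (standard error 0.12, 95% interval -0.38 to 0.19, adjusted p = 0.781). With an array left out, the Dusp6 difference ranged from -0.036 without SCC FAK-/- replicate 2 to -0.19 without SCC FAK-/- replicate 3; it was -0.051 without SCC FAK-wt replicate 2 and -0.15 without SCC FAK-wt replicate 3. The interval for Dusp6 includes 0 and reaches a level 1.30-fold higher in SCC FAK-/- cells, so a change of that size was not resolved with 3 arrays per line.

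The Sprouty genes were lower on every SCC FAK-wt array than on any SCC FAK-/- array, and none of the 3 passed the unadjusted threshold of 0.01. Sprouty proteins are recruited to the membrane after growth factor stimulation and limit signaling from receptor tyrosine kinases to ERK. Spry1 values were 4.74, 4.57 and 4.72 in SCC FAK-wt and 5.72, 5.33 and 4.95 in SCC FAK-/- cells. The groups did not overlap, and SCC FAK-/- replicate 3 was nearest to the other line. The gap was 0.21, less than the SD within SCC FAK-/- (0.38) and more than that within SCC FAK-wt (0.091). The difference for Spry1 was -0.66 (standard error 0.19, 95% interval -1.10 to -0.21, limma adjusted p = 0.148), or 1.58-fold higher in SCC FAK-/- cells. Signal above background was not checked for Spry1 or the other genes, and RMA can compress the differences of dim genes. With an array left out, the Spry1 difference ranged from -0.46 without SCC FAK-/- replicate 1, the highest array (limma adjusted p = 0.278), to -0.85 without SCC FAK-/- replicate 3 (adjusted p = 0.0985). The unadjusted p was under 0.01 only without replicate 3 of SCC FAK-/- among these 6 fits, and under 0.05 in each of them.

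Spry2 encodes the Sprouty protein that also binds the ubiquitin ligase Cbl. Its values were 9.30, 9.36 and 9.49 in SCC FAK-wt and 9.80, 9.76 and 9.65 in SCC FAK-/- cells. The arrays of each line lay close together, and the lowest SCC FAK-/- array was 0.16 above the highest SCC FAK-wt array. The Spry2 difference was -0.35 (standard error 0.10, 95% interval -0.59 to -0.11, limma adjusted p = 0.148), or 1.28-fold higher in SCC FAK-/-. Spry1 and Spry2 lay just outside the unadjusted threshold of 0.01, at ranks 1201 and 1213 by p where 1179 genes passed. Quantile normalization, cyclic loess, array weights and trended, robust variances each moved both genes inside it. Their adjusted p stayed above 0.05 under all 14 alternatives, from 0.0985 to 0.344 for Spry1 and from 0.0803 to 0.342 for Spry2.

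Spry4, the third Sprouty gene, was measured at 7.36, 7.02 and 7.07 in SCC FAK-wt and at 7.53, 7.61 and 7.44 in SCC FAK-/- cells. SCC FAK-wt replicate 1 stood nearest to the SCC FAK-/- arrays, 0.073 below the lowest of them. This gap was less than the SD within SCC FAK-wt (0.19) and within SCC FAK-/- (0.085). The difference for Spry4 was -0.37 (standard error 0.12, 95% interval -0.67 to -0.081, limma adjusted p = 0.206), or 1.30-fold higher in SCC FAK-/-. With an array left out, the Spry4 difference ranged from -0.31 without SCC FAK-wt replicate 2 (limma adjusted p = 0.369) to -0.48 without SCC FAK-wt replicate 1 (adjusted p = 0.136), where its unadjusted p was under 0.01. Spry4 was no longer at an unadjusted p under 0.05 without SCC FAK-wt replicate 2, SCC FAK-wt replicate 3 (-0.33) or SCC FAK-/- replicate 2 (-0.33).

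Spred1 encodes a Sprouty-related protein that brings the Ras GTPase-activating protein neurofibromin to the membrane and so lowers active Ras. Its values were 9.11, 8.99 and 9.20 in SCC FAK-wt and 9.48, 9.27 and 9.29 in SCC FAK-/- cells. The groups did not overlap, but the gap between them was only 0.065, less than the SD within either line (0.11 and 0.12). The Spred1 difference was -0.25 (standard error 0.11, 95% interval -0.51 to 0.016, limma adjusted p = 0.353). Spred1 was at an unadjusted p under 0.05 with trended, robust variances, quantile normalization or cyclic loess, and under none of the other alternatives; its adjusted p ranged from 0.270 to 0.629 over all 14.

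**Figure D2:**
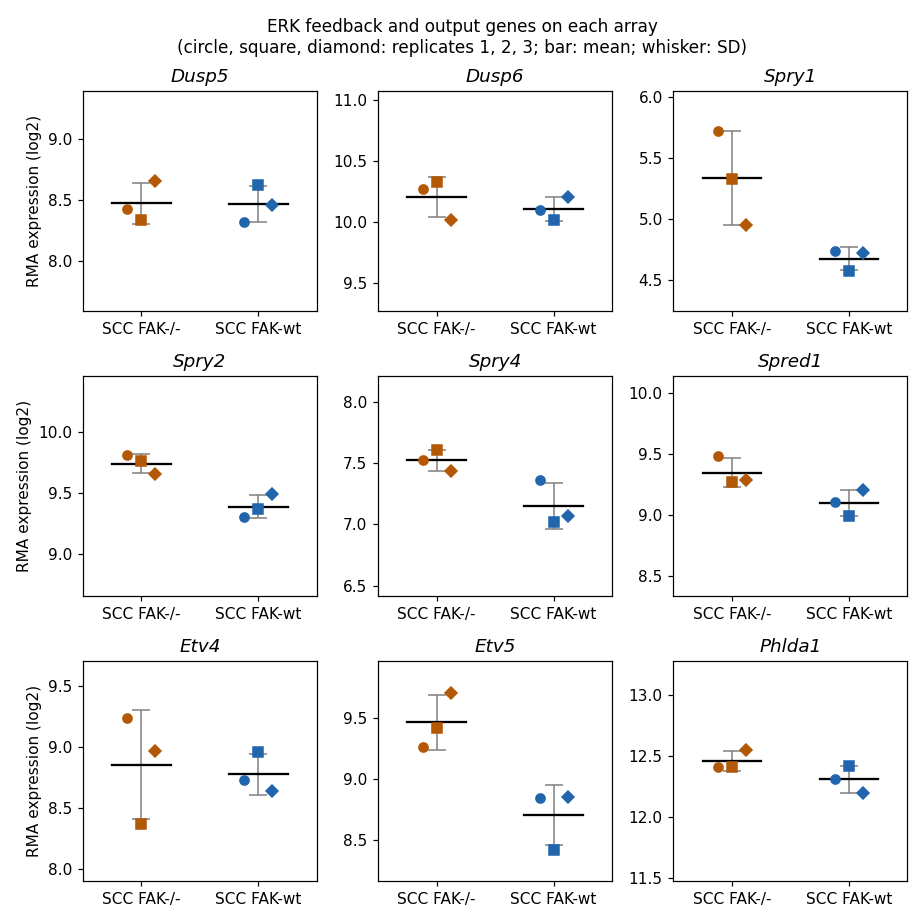
RMA expression (log2) of the 9 genes on each of the 6 arrays, with symbols for replicates 1 to 3, bars for the mean and whiskers for the SD of 3 arrays; each panel spans the same height on its own scale. The groups are apart in Spry1, Spry2, Spry4, Spred1 and Etv5 and overlap in Dusp5, Dusp6, Etv4 and Phlda1.

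Of the output genes, Etv5 was lower in SCC FAK-wt cells and its close relative Etv4 did not differ beyond the spread between arrays. Both encode PEA3-group ETS factors, which are induced by and act downstream of ERK signaling from growth factor receptors. Etv5 values were 8.85, 8.42 and 8.85 in SCC FAK-wt and 9.26, 9.42 and 9.70 in SCC FAK-/- cells. The lowest SCC FAK-/- array was 0.41 above the highest SCC FAK-wt array, the widest gap among the 9 genes. The means were 8.70 ± 0.25 (SD, n = 3) and 9.46 ± 0.23 (SD, n = 3), and the Etv5 difference was -0.76 (standard error 0.17, 95% interval -1.15 to -0.36, limma adjusted p = 0.0799). This corresponds to a level 1.69-fold higher in SCC FAK-/- cells, with an interval of 1.28 to 2.22. Etv5 ranked 560 of the 17204 genes by p. The call at an unadjusted 0.01 held under 13 of the 14 alternatives and was lost without moderation of the variances. With trended, robust variances the adjusted p of Etv5 was 0.0457, and over the 14 alternatives the adjusted p ranged from 0.0457 to 0.235.

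Etv4 was measured at 8.72, 8.96 and 8.64 in SCC FAK-wt and at 9.23, 8.37 and 8.97 in SCC FAK-/- cells. Replicates 1 and 3 of SCC FAK-/- lay above all the SCC FAK-wt arrays, replicate 3 only just, and replicate 2 lay below them. The SD was 0.44 in SCC FAK-/- and 0.16 in SCC FAK-wt cells. The Etv4 difference was -0.081 (standard error 0.22, 95% interval -0.60 to 0.44, adjusted p = 0.914), and with an array left out it ranged from -0.32 without SCC FAK-/- replicate 2 to 0.11 without SCC FAK-/- replicate 1, where its sign turned. The wide interval leaves room for a change in Etv4 of up to 1.51-fold toward SCC FAK-/-, so the relatives were also compared within arrays. On each array the Etv4 value was subtracted from the Etv5 value. The result was -0.54 to 0.21 in SCC FAK-wt and 0.026 to 1.05 in SCC FAK-/- cells, and the groups overlapped, with a difference of -0.68 between the lines. These values do not settle whether Etv5 and Etv4 respond differently.

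The same subtraction was made for the DUSP pair and for the 3 pairs of Sprouty genes, 5 pairs in all. The difference between the lines was -0.095 for Dusp6 minus Dusp5, -0.30 for Spry1 minus Spry2, -0.28 for Spry1 minus Spry4 and -0.021 for Spry4 minus Spry2, and the groups overlapped in each pair. The smallest p that exact permutation can reach here is 0.1, so no p from it is given for the 5 pairs. No model was fitted to these differences, and whether members of a family differ in their response was not resolved.

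Phlda1 encodes a pleckstrin homology-like domain protein that is induced by ERK signaling and has been linked to apoptosis. Its values were 12.31, 12.42 and 12.20 in SCC FAK-wt and 12.41, 12.41 and 12.55 in SCC FAK-/- cells. The highest SCC FAK-wt array reached the 2 lower SCC FAK-/- arrays, and the groups overlapped on the deposited scale. The Phlda1 difference was -0.15 (standard error 0.11, 95% interval -0.40 to 0.10, adjusted p = 0.591). With an array left out, it ranged from -0.092 without SCC FAK-wt replicate 3 to -0.20 without SCC FAK-wt replicate 2. After quantile normalization or cyclic loess the Phlda1 groups no longer overlapped, and the number of the 9 genes apart and lower in SCC FAK-wt was 6 in place of 5, against 10.8% and 11.4% of all genes.

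Promoter windows were examined for the motifs of factors that ERK signaling is known to act through. RefSeq windows (GRCm38.p6, 250 bases before to 50 after a start site) were found for 6 of the 9 genes, 7 windows in all, since Etv5 has 2 start sites. None was given for Spry4, Etv4 and Phlda1. Both strands were searched for the ETS core CCGGAA, the AP-1 motif TGANTCA, the cAMP response element TGACGTCA and the CArG box, the sequence bound by serum response factor, whose ETS-family partners are phosphorylated by ERK. These motifs are held by 14.9%, 7.81%, 1.79% and 1.63% of the 32817 windows in the table.

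The Dusp5 window held 2 CArG boxes, directly next to each other and 82 and 72 bases before the start site, on the plus strand at chr19:53529063-53529072 and chr19:53529073-53529082. They are shown because Dusp5 had the smallest difference between the lines of the 9 genes, with the boxes in capitals.
Dusp5 CArG box, distal: CCATATTTGG
Dusp5 CArG box, proximal: CCTTATATGG
The Spry2 window held an ETS core, downstream of its start site. None of the 4 motifs was found in the windows of Dusp6, Spry1, Spred1 or Etv5, which says only that these letters are absent there.

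The upstream stretches of Etv5 are shown because Etv5 was the gene called at the unadjusted threshold. Both lie on the minus strand of chromosome 16. Capitals mark the CCAAT box (CCAAT, or ATTGG on the other strand), a common promoter motif that was searched after the sequences had been seen and is held by 37.4% of all windows. It occurs 3 times before the distal start site and 1 time before the proximal one, and its matches do not overlap those of the other motifs.
Etv5 distal start site, chr16:22439571-22439820: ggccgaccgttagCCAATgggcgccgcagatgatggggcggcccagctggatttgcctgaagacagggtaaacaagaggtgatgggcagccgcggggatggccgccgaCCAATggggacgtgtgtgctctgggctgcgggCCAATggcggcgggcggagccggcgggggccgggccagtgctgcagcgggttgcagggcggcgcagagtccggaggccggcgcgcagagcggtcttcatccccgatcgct
Etv5 proximal start site, chr16:22438369-22438618: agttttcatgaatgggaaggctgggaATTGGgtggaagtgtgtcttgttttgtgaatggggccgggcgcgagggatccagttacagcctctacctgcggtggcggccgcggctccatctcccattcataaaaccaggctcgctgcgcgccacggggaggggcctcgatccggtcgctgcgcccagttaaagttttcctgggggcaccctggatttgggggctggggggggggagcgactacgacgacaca
Among the other windows, Dusp6 and Spry1 held 1 CCAAT box each. The array data give 1 value per gene and do not tell which Etv5 start site was used.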

How the data were processed

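Total RNA from 3 samples of each cell line was amplified, labelled with biotin and hybridized to GeneChip mouse arrays (Affymetrix). The authors collapsed probes to 1 value per Ensembl identifier and applied RMA with the affy package; versions and the probe mapping are not given in the sources used here. The deposited values were taken as log2 from their range. RMA can compress differences of dim genes, and probe saturation can do so for bright ones. Array values have no read depth, and 3 arrays per line limit the precision.

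All 17204 genes were fitted with cell line as the only term in limma 3.58.1 (R 4.3.3; lmFit and eBayes, two-sided), and p-values were adjusted over all genes by the Benjamini-Hochberg method. The fit was checked on simulated data. Differences between members of a family within each array were added after the values were seen and are described without a test: exact permutation tests (scipy 1.17.1), also run on them, could not have reached a p below 0.1, and no model was fitted to them. No pair of arrays was identical (0 pairs). The deposited table held 0 columns of other samples.

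The 14 alternatives were 2 other treatments of the variance, 3 further scalings, array weights, a filter on dim genes, the replicate number as a block and leaving out each array. The members and lists were chosen with earlier results of these data known. All 9 genes present are named. Symbols came with the list of 10 identifiers; the gene table used here (GRCm38.p6) pairs no Ensembl identifiers, so the fixed lists of other genes of the pathway, the fak gene and cell type markers were not analysed here. Genes of like pattern are not named, since with 2 groups of 3 arrays many genes share one.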

Additional observations from a re-analysis of the deposited data

How the results depend on the processing

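Of the 9 genes, 7 kept their direction under all 14 alternatives, and Dusp5 and Etv4 did not. Dusp5, at -0.0028 in the main fit, turned to 0.030 with each array centered on its median and to 0.0027 with array weights, and ranged from -0.079 to 0.091 with an array left out. Etv4 ranged from -0.32 to 0.11 with an array left out. At an unadjusted p under 0.01, 1 of the 9 genes was lower in SCC FAK-wt in the main fit, against 630 of all 17204 genes. The count was 3 of the 9 with trended, robust variances, quantile normalization, cyclic loess or array weights (Etv5, Spry1 and Spry2 in each). Over all genes, these fits gave 683, 674, 697 and 641, in that order. The cause of the move from 1 to 3 was not tested. With an array left out, 1 to 2 of the 9 genes were lower, against 464 to 538 of all genes. Without moderation the count was also 1 of the 9, against 423 of all genes, but the gene was Spry2 and not Etv5. At an adjusted p under 0.05, the count among the 9 was 1 with the trended, robust variances (Etv5) and 0 under the other 13 alternatives. Over all genes, 330 were called at that threshold in the main fit and 549 with the trended, robust variances. The all-gene number fell to between 108 and 188 with an array left out, and to 39 without moderation. None of the 9 genes was higher at either threshold (0 of 9). A replicate block left 2 of the 9 genes lower at p under 0.01, Etv5 and Spry1, against 525 of all genes. Deviations of same-numbered arrays correlated at -0.034 to 0.028 across genes, and the main fit did not treat these arrays as pairs.

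With 3 arrays per line, the 95% intervals of the 9 differences span 0.48 to 1.04 log2 units.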
